A study of Homo sapiens with 2 samples.

Results

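Glutamate and neutral amino acid transporters were examined as a set of 10 genes, SLC1A1, SLC1A2, SLC1A3, SLC1A4, SLC1A5, SLC7A5, SLC3A2, SLC38A1, SLC38A2 and SLC38A4, taken by gene symbol from a table of 56558 symbols. They were chosen by their FPKM values in the knockdown and shGFP libraries, with those already known, so the differences given for them are a description and not a test. Expression was measured by RNA sequencing in Huh7, an established human hepatocellular carcinoma line. There was 1 library labelled Neil3 KD, in which NEIL3, a DNA glycosylase of base excision repair, was knocked down, and 1 shGFP control library, in which the hairpin is directed against green fluorescent protein. Both came from Huh7 cells at passages 5 to 8, a single cell line, and the labels do not say by which means NEIL3 was knocked down.

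Amino acids cross the plasma membrane through carriers of several solute carrier (SLC) families. SLC1A1, SLC1A2 and SLC1A3 take up glutamate and aspartate against a steep gradient by coupling to sodium, proton and potassium gradients, and are best known from neurons and glia. SLC1A4 and SLC1A5, of the same family, are sodium-dependent exchangers of small neutral amino acids, and SLC1A5 carries glutamine in many tumour cells. SLC7A5 exchanges large neutral amino acids such as leucine and needs the heavy chain SLC3A2, also called CD98, to reach the surface, while the SLC38 carriers load cells with alanine, glutamine and related amino acids together with sodium.

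The stretches of DNA around the starts of SLC1A3, SLC1A5 and SLC38A4 are shown first because these genes had the largest ratios between the libraries. Each is a window of 300 bases, 250 before and 50 after a RefSeq start site (GRCh38.p14), and is the window nearest to the deposited start of its gene. They lie at chr5:36606356-36606655 (plus strand) for SLC1A3, chr19:46788545-46788844 (minus strand) for SLC1A5 and chr12:46825948-46826247 (minus strand) for SLC38A4, written 5′ to 3′ in the direction of transcription. The RefSeq start of SLC38A4 lies 6411 bases inside the deposited gene.
SLC1A3: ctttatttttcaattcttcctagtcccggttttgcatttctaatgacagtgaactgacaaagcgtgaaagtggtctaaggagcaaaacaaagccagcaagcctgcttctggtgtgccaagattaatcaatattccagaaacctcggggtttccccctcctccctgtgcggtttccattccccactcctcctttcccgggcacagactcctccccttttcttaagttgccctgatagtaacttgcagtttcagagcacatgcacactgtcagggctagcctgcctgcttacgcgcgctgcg
SLC1A5: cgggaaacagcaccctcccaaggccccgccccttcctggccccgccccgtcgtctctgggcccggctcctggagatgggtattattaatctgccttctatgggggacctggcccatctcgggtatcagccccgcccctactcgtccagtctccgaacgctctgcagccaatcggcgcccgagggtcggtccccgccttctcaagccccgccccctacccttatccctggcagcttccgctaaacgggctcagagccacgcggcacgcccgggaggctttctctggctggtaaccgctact
SLC38A4: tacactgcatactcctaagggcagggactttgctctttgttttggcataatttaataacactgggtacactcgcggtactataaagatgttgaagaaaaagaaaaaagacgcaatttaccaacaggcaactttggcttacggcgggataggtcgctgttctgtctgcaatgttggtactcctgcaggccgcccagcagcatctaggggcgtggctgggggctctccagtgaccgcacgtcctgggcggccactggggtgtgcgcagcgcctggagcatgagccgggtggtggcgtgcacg
The GC content of these windows was 50.0% for SLC1A3, 66.7% for SLC1A5 and 55.0% for SLC38A4, against a median of 58.7% over all 35116 RefSeq windows. They held 9, 24 and 16 CpG dinucleotides in the same order.

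RefSeq windows were matched by symbol for 9 of the 10 genes, all but SLC1A2, giving 17 windows because some genes have several starts. They were searched on both strands for TGATGNAAN, the core of the amino acid response element that ATF4 and C/EBP proteins bind. The motif occurred in 5 of these 17 windows, each from a different gene, and in 3.61% of all windows. Counted by gene, 5 of 9 had a match in some window, against 4.45% of 27305 genes, which have fewer windows each. None of the 9 windows nearest to a deposited start held it, so each match lies by another RefSeq start of its gene, and gene-level values do not show which start was used. The matches are printed with up to 10 bases on each side, the motif in capitals.
SLC1A3: aggaaatgacTGATGCAAAgcagggttaa
SLC1A4: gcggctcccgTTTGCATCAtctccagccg
SLC1A5: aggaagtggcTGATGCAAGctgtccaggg
SLC3A2: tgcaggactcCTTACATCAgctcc
SLC38A1: cagacccgaaTGATGAAAAgggatcagct
They lie at chr5:36596358-36596386, chr2:64989381-64989409, chr19:46784893-46784921, chr11:62881725-62881748 and chr12:46266502-46266530. In SLC1A4 and SLC3A2 the motif reads on the strand opposite to the gene, so its complement is printed. SLC1A3 and SLC1A4 carry the same 9 letters, TGATGCAAA. The SLC1A4 match begins 8 bases before its RefSeq start and the SLC38A1 match 4 bases before. A match describes these letters only, and the genes that share it include SLC1A5, which was higher in the knockdown library, and SLC1A3, which was lower.

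The label of the knockdown was checked first. NEIL3 stood at 2.84 FPKM (fragments per kilobase of transcript, scaled to the library's mapped fragments) in the knockdown library and at 5.34 FPKM in the shGFP library, a ratio of 0.532. On the scale of log2(FPKM + 1) the NEIL3 ratio was -0.72. That lies within the central 95% of all symbols analysed (-0.74 to 0.74), so the direction follows the label but the size does not stand out. All 7 hepatocyte markers were expressed in both libraries, with HNF4A, a hepatocyte transcription factor, at 41.3 FPKM in the knockdown library and 33.6 FPKM in the shGFP library. ALB (albumin) stood at 1272 FPKM in the knockdown library and 1346 FPKM in the shGFP library. The 6 markers other than ALB were all higher in the knockdown library, AFP most, at 59.8 FPKM against 12.3 FPKM in the shGFP library. The 7 summed to 2348 FPKM in the knockdown library and 2073 FPKM in the shGFP library. Of 5 astrocyte and glial markers, chosen because SLC1A2 and SLC1A3 are best known from these cells, only ALDH1L1, a folate enzyme that liver also makes, reached 1 FPKM. It stood at 10.9 FPKM in the knockdown library and 18.7 FPKM in the shGFP library. GFAP stood at 0.0158 FPKM in the knockdown library and 0.104 FPKM in the shGFP library, and AQP4 was listed at the floor of the table in the knockdown library and at 0.00579 FPKM in the shGFP library. S100B stood at 0.468 FPKM in the knockdown library and 0.408 FPKM in the shGFP library, and SOX10 at 0.105 FPKM in the knockdown library and 0.0605 FPKM in the shGFP library. The summed level of the 5, nearly all of it ALDH1L1, was 11.5 FPKM in the knockdown library and 19.3 FPKM in the shGFP library. The part of other cell types in the results was not tested. Transcripts of the mitochondrial genome held 26.3% of all FPKM in the knockdown library and 23.1% in the shGFP library. Depth is unknown. The ratio that recurred most among 6118 genes of low level, 1.29, would arise from 1 fragment in each library at a knockdown depth of 77.7% of the shGFP depth.

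Of the 10 transporters, 8 reached 1 FPKM in either library and are counted below. SLC1A5 was higher in the knockdown library, SLC1A3, SLC38A4 and SLC7A5 were lower, and SLC1A4, SLC3A2, SLC38A1 and SLC38A2 lay within 1.5-fold. Folds are counted on the log2(FPKM + 1) scale, where the differences of scarce transcripts appear smaller than they are, and plain ratios are given beside FPKM values. On that scale 4 of 8 transporters were at least 1.5-fold apart, 1 higher and 3 lower, against 9.04% of 14209 symbols analysed (4.55% higher and 4.48% lower). At 2-fold, SLC1A5 and SLC1A3 remained, 2 of 8, against 2.62% of all symbols (1.34% higher and 1.28% lower). Because the genes were chosen with these values known, nothing is read from their share. Their median log2 ratio was 0.06, against 0.02 over all symbols analysed. Among the 357 other protein-coding SLC genes, 207 were analysed, of which 11 were at least 1.5-fold higher and 12 lower (11.1%), with a median of 0.05. With 1 library per group, no ratio can be set against an error between replicates, and in bulk RNA fewer cells with a transcript and less of it per cell cannot be told apart.

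**Figure D1:**
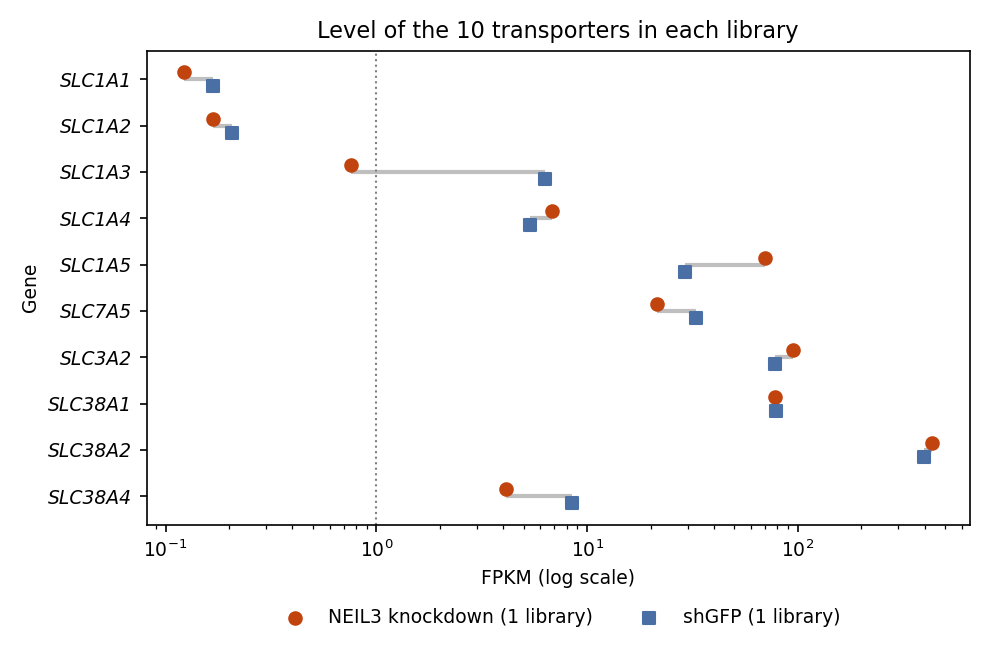
FPKM of the 10 transporters on a log axis, with circles for the NEIL3 knockdown library and squares for the shGFP library, 1 library each. The dotted line marks 1 FPKM, which SLC1A1 and SLC1A2 did not reach; the gap is widest for SLC1A3, at 0.755 FPKM in the knockdown library and 6.34 FPKM in the shGFP library.

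The 3 glutamate carriers of the set were of low level in Huh7 cells, and SLC1A3 alone of them reached 1 FPKM in either library. SLC1A3, called EAAT1 or GLAST (ENSG00000079215, chromosome 5, 36606355 to 36688334, plus strand, GRCh38), stood at 0.755 FPKM in the knockdown library and at 6.34 FPKM in the shGFP library. It was 8.40-fold lower by the plain ratio. Its log2 ratio of -2.06 was the 34th from the lowest of the 14209 symbols. SLC1A3 was counted only through its shGFP level, as its knockdown level was under 1 FPKM, so the size of its ratio is uncertain. The log2 ratio was -0.98 with a pseudocount of 5 FPKM and -3.07 with none. SLC1A2, the main glutamate carrier of astrocytes (chromosome 11, 35251206 to 35420063), stood at 0.169 FPKM in the knockdown library and 0.207 FPKM in the shGFP library. SLC1A1, the carrier of neurons and of kidney and gut epithelium (chromosome 9, 4490444 to 4587469), stood at 0.123 FPKM in the knockdown library and 0.167 FPKM in the shGFP library. Both were under 1 FPKM in each library, and no difference is read from them. These 3 glutamate carriers of the set summed to 1.05 FPKM in the knockdown library and 6.71 FPKM in the shGFP library.

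SLC1A3 overlaps 2 antisense genes and 1 unclassified transcript on its own strand. The same-strand transcript, AC008957.3, stood at 0.0675 FPKM in the knockdown library and 0.410 FPKM in the shGFP library, both under 1 FPKM, so no difference is read from it. The antisense gene AC008957.1 stood at 0.737 FPKM in the knockdown library and 0.683 FPKM in the shGFP library. The strand setting used in quantification is not given, so antisense reads cannot be told apart from those of SLC1A3, and in the knockdown library both were at about the same level.

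The difference in SLC1A3 was not shared by its neighbours on chromosome 5. The nearest analysed gene before it, RANBP3L (304 kb away), stood at 79.2 FPKM in the knockdown library and 78.9 FPKM in the shGFP library. The nearest after it, the cohesin loader NIPBL (188 kb away), stood at 24.7 FPKM in the knockdown library and 28.6 FPKM in the shGFP library. Of 11 other genes analysed within 1 Mb of SLC1A3, 0 were at least 1.5-fold higher and 1, a ribosomal protein pseudogene, was lower. Their log2 ratios ran from -0.61 to 0.19. Over all symbols 4.55% were higher and 4.48% lower, so nothing particular to the locus is read from this count. The protein-coding genes nearest to SLC1A3 in level, by distance in log2(FPKM + 1) over both libraries, were HEPACAM (distance 0.11), UGT1A3 (0.25) and HAMP (0.41). HEPACAM, an adhesion protein, stood at 0.897 FPKM in the knockdown library and 6.29 FPKM in the shGFP library. UGT1A3, a glucuronosyltransferase that shares exons with its UGT1A relatives and is uncertain for that reason, stood at 0.828 FPKM in the knockdown library and 5.21 FPKM in the shGFP library. HAMP, which encodes hepcidin, stood at 0.927 FPKM in the knockdown library and 8.60 FPKM in the shGFP library. HEPACAM, UGT1A3 and HAMP were picked by these same values, so their likeness to SLC1A3 follows from the choice. All were under 1 FPKM in the knockdown library, so the sizes of their ratios are uncertain.

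The neutral amino acid exchangers of the same family stood higher in the knockdown library. SLC1A5, also called ASCT2 (ENSG00000105281, chromosome 19, 46774883 to 46788594, minus strand), stood at 69.8 FPKM in the knockdown library and at 29.1 FPKM in the shGFP library, a ratio of 2.40. Its log2 ratio of 1.23 was the 107th from the highest of the 14209 symbols. SLC1A4, or ASCT1, which carries serine, alanine and cysteine (chromosome 2, 64988477 to 65023865), stood at 6.84 FPKM in the knockdown library and 5.36 FPKM in the shGFP library. Its ratio of 1.28 was within 1.5-fold.

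The make-up of the 5 SLC1 genes of the set therefore differed between the libraries. SLC1A5 made up 89.8% of the summed FPKM of the 5 SLC1 genes in the knockdown library and 70.7% in the shGFP library. SLC1A3 made up 0.972% in the knockdown library and 15.4% in the shGFP library, and SLC1A4 made up 8.81% in the knockdown library and 13.0% in the shGFP library. SLC1A5 was 92.5 times the level of SLC1A3 in the knockdown library and 4.60 times in the shGFP library. These 5 genes summed to 77.7 FPKM in the knockdown library and 41.2 FPKM in the shGFP library. SLC1A6 and SLC1A7, named after their values were seen, belong to the family but not to the set, and are in none of these sums. SLC1A7 stood at 0.658 FPKM in the knockdown library and 0.943 FPKM in the shGFP library. SLC1A6 was at the floor of the table in both.

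**Figure D2:**
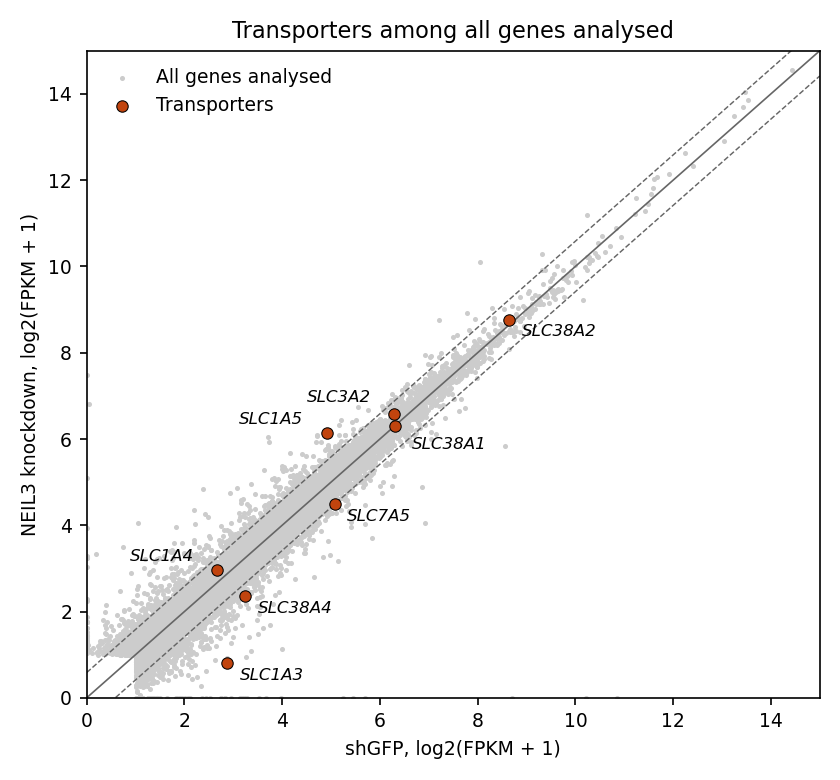
Log2(FPKM + 1) of the 14209 symbols analysed (grey) and of 8 transporters (filled circles), with the NEIL3 knockdown library on the vertical axis and the shGFP library on the horizontal axis. The solid line marks equal levels and the dashed lines a 1.5-fold difference; SLC1A5 lies above the upper line, SLC1A3 and SLC38A4 below the lower one and SLC7A5 on it, at a log2 ratio of -0.59.

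The chains of the CD98 exchanger differed in opposite directions, SLC3A2 by less than 1.5-fold. SLC7A5, also called LAT1 (ENSG00000103257, chromosome 16, 87830023 to 87869488, minus strand), stood at 21.5 FPKM in the knockdown library and 32.8 FPKM in the shGFP library, a ratio of 0.656. With a log2 ratio of -0.59 it is only just past 1.5-fold, and it is no longer past it when FPKM are scaled to the sum outside the mitochondrial genome (-0.53). Its heavy chain SLC3A2 (ENSG00000168003, chromosome 11, 62856102 to 62888875, plus strand) stood at 94.4 FPKM in the knockdown library and 77.5 FPKM in the shGFP library, a ratio of 1.22. SLC3A2 was thus 4.39 times the level of SLC7A5 in the knockdown library and 2.37 times in the shGFP library.

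SLC3A2 also pairs with other light chains, which were set beside SLC7A5, a grouping made after their values were seen. The light chain of highest level in the knockdown library was SLC7A11, or xCT, which exchanges cystine for glutamate. SLC7A11 stood at 54.4 FPKM in the knockdown library and 33.3 FPKM in the shGFP library, a ratio of 1.63. SLC7A10, a carrier of small neutral amino acids including D-serine, stood at 11.8 FPKM in the knockdown library and 22.4 FPKM in the shGFP library, 1.90-fold lower. SLC7A8, or LAT2, a relative of SLC7A5, stood at 5.67 FPKM in the knockdown library and 9.72 FPKM in the shGFP library. The carriers SLC7A6 and SLC7A7, which exchange cationic for neutral amino acids, were close. SLC7A6 stood at 29.9 FPKM in the knockdown library and 28.9 FPKM in the shGFP library. SLC7A7 stood at 4.89 FPKM in the knockdown library and 4.75 FPKM in the shGFP library. Their sum differed little, with the 6 light chains at 128 FPKM in the knockdown library and 132 FPKM in the shGFP library. Within it SLC7A11 made up 42.5% in the knockdown library and 25.3% in the shGFP library, and SLC7A5 made up 16.8% in the knockdown library and 24.8% in the shGFP library.

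**Figure D3:**
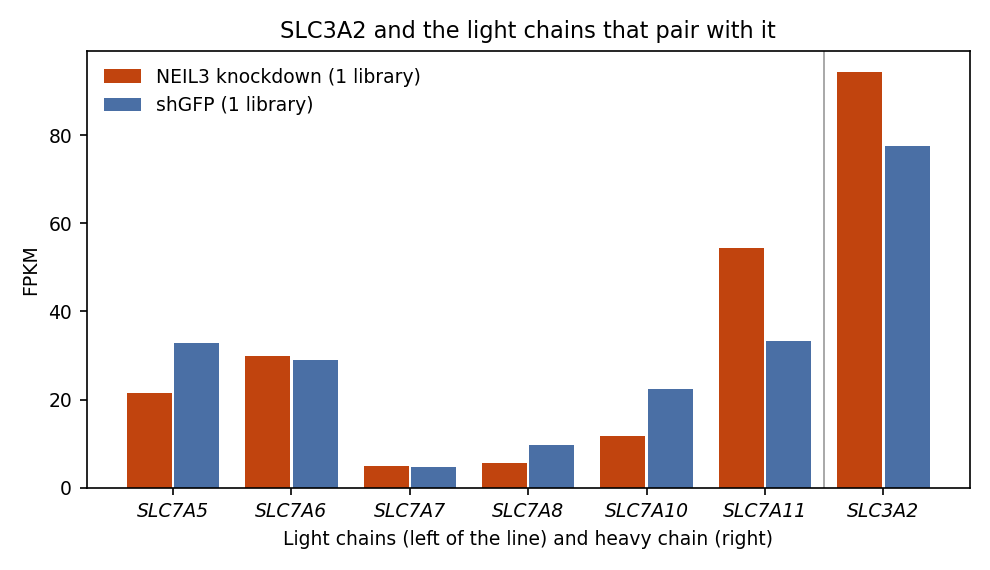
FPKM of 6 light chains and of their heavy chain SLC3A2, with the NEIL3 knockdown library on the left of each pair of bars and the shGFP library on the right, 1 library each. SLC7A5, SLC7A8 and SLC7A10 are lower and SLC7A11 higher in the knockdown library, while SLC7A6 and SLC7A7 are nearly level.

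The sodium-coupled SLC38 carriers held most of the transcript of the set, and SLC38A4 alone of the 3 was 1.5-fold apart. SLC38A2, or SNAT2, the carrier that many cells induce when amino acids are scarce (ENSG00000134294, chromosome 12, 46358189 to 46372867, minus strand), stood at 434 FPKM in the knockdown library and 398 FPKM in the shGFP library. It was the most abundant of the 10 in both. SLC38A1, or SNAT1, a glutamine carrier (chromosome 12, 46183063 to 46270017), stood at 77.9 FPKM in the knockdown library and 78.3 FPKM in the shGFP library. SLC38A4, or SNAT4, a carrier known from liver (ENSG00000139209, chromosome 12, 46764761 to 46832408, minus strand), stood at 4.14 FPKM in the knockdown library and 8.46 FPKM in the shGFP library, 2.05-fold lower. Its log2 ratio was -0.88, and -0.56 with a pseudocount of 5 FPKM, which is within 1.5-fold. A long noncoding RNA on the other strand, AC008014.1, overlaps SLC38A4 and stood at 3.66 FPKM in the knockdown library and 2.66 FPKM in the shGFP library.

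These 3 genes lie side by side on chromosome 12 on the minus strand, within 649 kb. SLC38A1 and SLC38A2 are 88.2 kb apart and SLC38A2 and SLC38A4 are 392 kb apart. SLC38A2 was 105 times the level of SLC38A4 in the knockdown library and 47.0 times in the shGFP library, while SLC38A2 was 5.57 times the level of SLC38A1 in the knockdown library and 5.09 times in the shGFP library. The gene before the group, the splicing-associated SCAF11, stood at 38.4 FPKM in the knockdown library and 33.7 FPKM in the shGFP library. The gene after it, the adhesion protein AMIGO2, stood at 3.87 FPKM in the knockdown library and 3.94 FPKM in the shGFP library. Of 11 other genes analysed within 1 Mb of the group, 0 were at least 1.5-fold apart, against 9.04% of all symbols. Their log2 ratios ran from -0.39 to 0.49, and nothing is read from a count over so few genes.

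**Figure D4:**
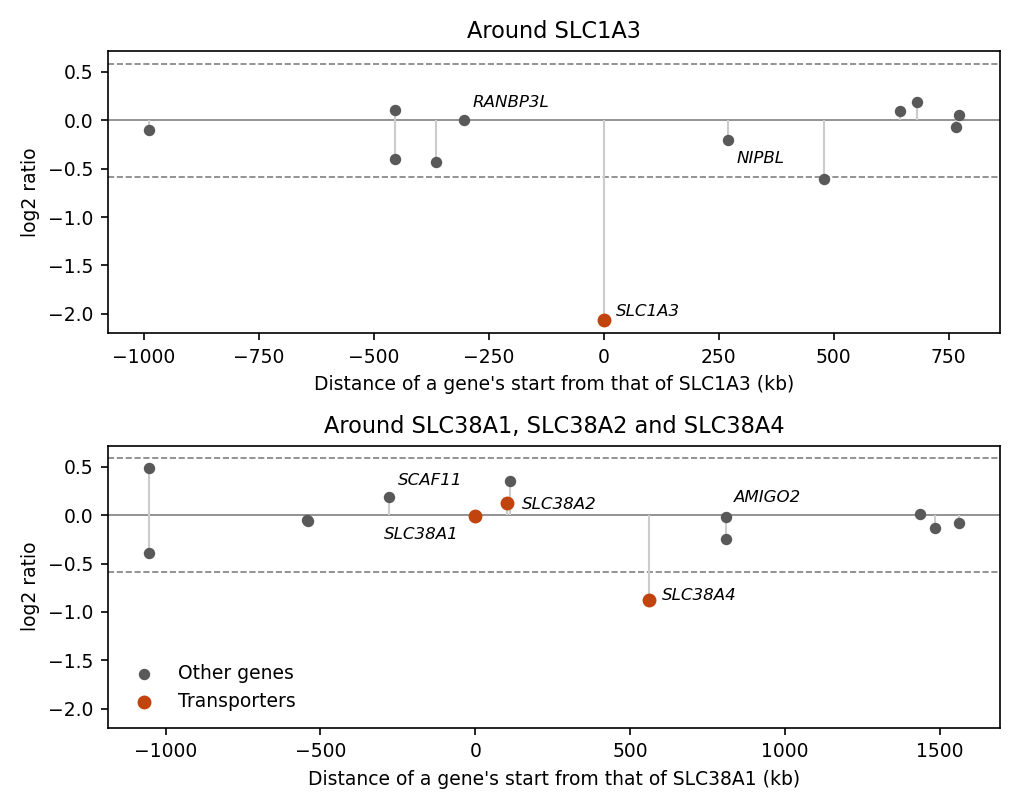
Log2 ratio of FPKM + 1, NEIL3 knockdown over shGFP, against the distance in kb of each gene's start from that of SLC1A3 (top) or SLC38A1 (bottom), for genes analysed within 1 Mb of each locus. The dashed lines mark 1.5-fold; SLC1A3, at -2.06, and SLC38A4, at -0.88, lie below all their plotted neighbours.

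The order of levels differed between the libraries, except for SLC38A2 at the top and SLC1A2 and SLC1A1 at the bottom. From high to low it was SLC38A2, SLC3A2, SLC38A1, SLC1A5, SLC7A5, SLC1A4, SLC38A4, SLC1A3, SLC1A2 and SLC1A1 in the knockdown library. In the shGFP library it was SLC38A2, SLC38A1, SLC3A2, SLC7A5, SLC1A5, SLC38A4, SLC1A3, SLC1A4, SLC1A2 and SLC1A1. Without replicates, neighbours in these orders cannot be said to differ, and SLC38A1 and SLC3A2 were nearly level in the shGFP library. Summed over the 10 genes, FPKM came to 710 in the knockdown library and 636 in the shGFP library. The SLC38 carriers made up 72.7% of this sum in the knockdown library and 76.2% in the shGFP library. The exchangers SLC1A4 and SLC1A5 together made up 10.8% in the knockdown library and 5.42% in the shGFP library.

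Other amino acid transporters, mostly of the plasma membrane, differed in both directions. Of 37 listed, 20 were analysed, of which 3 were at least 1.5-fold higher and 2 lower, with a median log2 ratio of 0.04. Over all symbols 9.04% were 1.5-fold apart (4.55% higher and 4.48% lower), a smaller share than in this list. SLC38A11, a less studied relative of SLC38A4, stood at 25.4 FPKM in the knockdown library and 9.90 FPKM in the shGFP library. SLC6A14, which carries neutral and cationic amino acids with sodium and chloride, stood at 107 FPKM in the knockdown library and 46.1 FPKM in the shGFP library. The other 3 past 1.5-fold, SLC7A11, SLC7A10 and SLC7A8, are described above.

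Enzymes of glutamate and glutamine metabolism, listed together with some mitochondrial SLC25 carriers, mostly lay within 1.5-fold, as most symbols did. Of 36 listed, 32 were analysed, of which 2 were at least 1.5-fold higher and 0 lower (6.25%, against 9.04% of all symbols). Their log2 ratios were above 0 in 22 and below 0 in 10, against 7534 and 6675 of all symbols, with a median of 0.12, against 0.02 over all symbols. Among the 31 of them with a mean of 5 FPKM or more, 2 were higher and 0 lower. Over all 9737 symbols of that level, 338 were higher and 249 lower, so no smaller share is read from the list. ALDH4A1, which makes glutamate in proline breakdown, stood at 28.4 FPKM in the knockdown library and 14.6 FPKM in the shGFP library. ALDH18A1, which starts proline synthesis from glutamate, stood at 139 FPKM in the knockdown library and 86.2 FPKM in the shGFP library. The lowest ratio was that of ASNS, asparagine synthetase, at 56.8 FPKM in the knockdown library and 76.6 FPKM in the shGFP library, named after its values were seen.

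The sodium pump sets the gradient that the SLC1 and SLC38 carriers use. Of 13 listed genes of its subunits and FXYD regulators, 7 were analysed, with a median log2 ratio of -0.09. Of these, 1 was at least 1.5-fold higher and 1 lower (28.6%, against 9.04% of all symbols). FXYD2, the gamma subunit, stood at 6.30 FPKM in the knockdown library and 2.34 FPKM in the shGFP library.

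The amino acid response, in which the kinase EIF2AK4 and the factor ATF4 act on genes of amino acid supply, held single genes that differed in both directions. All 28 listed genes were analysed, with a median log2 ratio of -0.05. Of these, 2 were at least 1.5-fold higher and 3 lower (17.9%, against 9.04% of all symbols). JDP2, a repressor of the AP-1 family, stood at 4.52 FPKM in the knockdown library and 9.27 FPKM in the shGFP library. MTHFD2, a mitochondrial folate enzyme, stood at 42.7 FPKM in the knockdown library and 70.0 FPKM in the shGFP library. ATF5, a stress-induced factor, stood at 4.85 FPKM in the knockdown library and 2.48 FPKM in the shGFP library. SLC7A11, given above, is the other higher gene, and the mTORC1 inhibitor DDIT4, named after its values were seen, is the third lower gene.

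Genes of amino acid sensing by mTORC1, the growth kinase that SLC7A5 and SLC1A5 are known to feed, were close between the libraries. All 39 listed were analysed and 0 were 1.5-fold apart, against 9.04% of all symbols. Their median log2 ratio was 0.07, with a range from -0.57 to 0.45. With a mean of 5 FPKM or more, 0 of 36 were 1.5-fold apart, against 338 higher and 249 lower of 9737 symbols. RRAGD, a Rag GTPase, stood at 5.71 FPKM in the knockdown library and 8.97 FPKM in the shGFP library. SEC13, a part of the GATOR2 complex and of COPII coats, stood at 84.2 FPKM in the knockdown library and 61.3 FPKM in the shGFP library.

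Among 17 partners and regulators of these transporters, 14 were analysed, with a median log2 ratio of 0.03. Of these, 2 were at least 1.5-fold higher and 1 lower (21.4%, against 9.04% of all symbols). LGALS3, or galectin-3, which binds CD98, stood at 17.2 FPKM in the knockdown library and 8.48 FPKM in the shGFP library. PDZK1, a scaffold of membrane transporters, stood at 4.33 FPKM in the knockdown library and 1.95 FPKM in the shGFP library. SGK1, a kinase that raises the surface level of several carriers, stood at 57.0 FPKM in the knockdown library and 98.7 FPKM in the shGFP library.

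**Figure D5:**
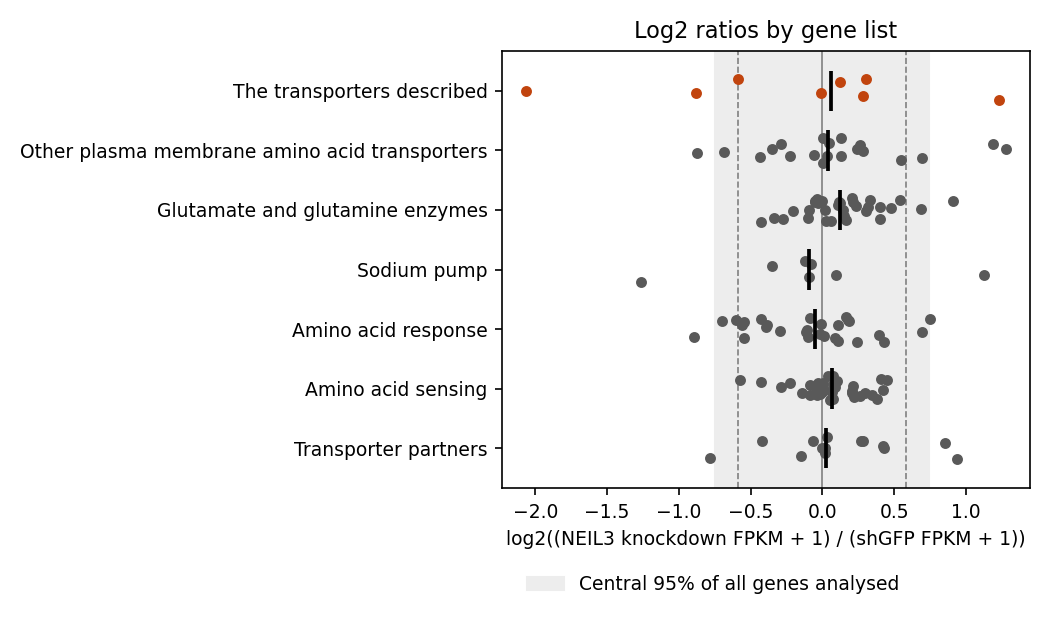
Log2 ratio of FPKM + 1, NEIL3 knockdown over shGFP, for 8 transporters and the analysed genes of 6 related lists, 1 point per gene, with a black bar at each median. The grey band holds the central 95% of the 14209 symbols, from -0.74 to 0.74, and the dashed lines mark 1.5-fold; medians lie between -0.09 and 0.12 while single genes, SLC1A3 furthest, lie outside the band.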

How the data were processed

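The series holds gene expression of 1 NEIL3 knockdown and 1 shGFP library of Huh7 cells. The submitters' processing notes name HISAT2 2.1.0, Cufflinks 2.2.1 and Cuffdiff, along with Trimmomatic 0.36, bcl2fastq and SAMtools 1.2, and build GRCh38.p10. Which annotation, filters and strand setting were used is not stated there. The kit was strand-specific, per the labels' protocols. The authors deposited FPKM for 58220 genes, with undetected genes listed at 1e-05, a ratio and log2 ratio of knockdown over shGFP, and p-values and q-values of their own comparison, per the file headers. FPKM are not counts, and the total fragments behind them are unknown, so no counting interval is given. Cuffdiff shares reads among overlapping genes by a model, which adds error there.

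The most abundant row was kept per symbol; each of the 10 transporters had 1 row. Log2((knockdown + 1)/(shGFP + 1)) was computed in Python 3.11.15 with pandas 2.3.3 for the 14209 symbols that reached 1 FPKM in either library. The script was tested on simulated data, with large changes put into abundant genes. That checks the arithmetic only, not the calls on scarce transcripts such as SLC1A3. With 1 library per group no test was run. In the authors' deposited table, none of the 10 transporters were marked significant, against 13 genes in all; the lowest q-value, for SLC1A3, was 0.0688, and it compares 2 libraries, not conditions. Members and lists were chosen with earlier results of these data known. Named genes are the 10, NEIL3, up to 4 genes per list by size of log2 ratio, flanking and overlapping genes, and the 3 nearest to SLC1A3 in level; others are named as chosen after their values were seen or as parts of a marker list. Gene positions are those deposited, and promoter windows are RefSeq's (GRCh38.p14). Alternatives changed the pseudocount, the filter, the scaling and the handling of repeated symbols. Some genes that these rules name are not reported here.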

Additional observations from a re-analysis of the deposited data

How the results depend on the processing

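SLC1A5 stayed at least 1.5-fold higher, and SLC1A3 at least 1.5-fold lower where it was counted, under all 9 alternatives; a mean of 5 FPKM or more left SLC1A3 out. With a pseudocount of 5 FPKM the transporters 1.5-fold lower numbered 1, as SLC7A5 (-0.51) and SLC38A4 (-0.56) came within 1.5-fold. SLC7A5 also did so when scaled to FPKM outside the mitochondrial genome (-0.53). SLC38A1, near level, changed sign under that scaling, at 0.05 against -0.01. The lowering of folds by a larger pseudocount follows from its construction.

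Over all symbols, 961 were 1.5-fold higher and 1026 lower with a pseudocount of 0.1 FPKM; with 5 FPKM 247 were higher and 177 lower; by plain ratio 1006 were higher and 1074 lower; with a mean of 5 FPKM or more 338 were higher and 249 lower. With a pseudocount of 0.1 FPKM or plain ratios, the lower genes numbered 5 in the amino acid response, 1 in amino acid sensing and 2 among partners, and centring on the median of all genes also gave 1 in amino acid sensing. With a pseudocount of 5 FPKM, 1 of the other transporters and 0 of the sodium pump were lower, 1 of the amino acid response was higher and 1 lower, and 1 of the partners was higher. With a mean of 5 FPKM or more, the sodium pump list had 0 higher and 0 lower, the amino acid response 1 higher and the partners 1 higher. No paired analysis was possible because each group has 1 library. SLC1A1 and SLC1A2 were under 1 FPKM in both libraries and gave no usable ratio. No ratio here has a replicate error.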
